A study of Mus musculus with 6 samples.

Results

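The genes described here are 9 carriers and partners that move amino acids across the cell membrane: Slc38a1, Slc38a2, Slc1a4, Slc1a5, Slc7a5, Slc3a2, Slc7a1, Slc7a11 and Slc6a9. They were taken by symbol from the 23329 genes of the count tables, and all 9 have a row and passed the filter on low counts, which kept 13478 genes. The set was chosen by the count of Slc38a1, which was higher in the embryonic cultures with a small spread, so its values are given as a description with no test. The name neutral amino acid transporters covers most of the 9 but not all, since Slc7a1 carries cationic amino acids, Slc7a11 exchanges cystine for glutamate, and Slc3a2 is a partner protein without transport activity of its own.

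RNA was sequenced from primary cultures of small intestinal mesenchymal cells (fibroblasts, myofibroblasts and smooth muscle of the gut wall) of C57 mice. The labels name no treatment of either group, although PBS, with no explanation given, stands in the deposited names of all 6 libraries. There were 3 embryonic cultures (E14.5, taken at day 14.5 of gestation) and 3 from adults of unstated age. Only the adult gut had its villi scraped off before digestion, so handling and stage cannot be told apart. All cells grew in RPMI1640 with 10% serum, 2 mM added glutamine, 50 µM β-mercaptoethanol and the kinase inhibitor Y27632 at 1 µM, and every culture therefore had the same stated supply of amino acids. The labels do not say whether cultures came from separate animals or litters, and p-values measure only the spread between these cultures.

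Amino acid carriers of the SLC families include sodium-driven importers and exchangers. Importers such as SLC38A1 and SLC38A2 (system A) concentrate glutamine, alanine and serine in the cell. Exchangers such as SLC7A5 spend part of that pool to bring in leucine and other large amino acids, which feed protein synthesis and the growth kinase complex mTORC1. Many of these genes are induced by the transcription factor ATF4 when amino acids run short.

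Gene totals ran from 18850224 to 32672370 counts per library. Levels are in CPM (counts scaled to a common total, on TMM-scaled library sizes). Summed over a list of 8 markers, mesenchymal genes such as Col1a1 and Dcn came to 12300 to 23886 CPM. Smooth muscle genes such as Acta2 came to 15638 to 28291 CPM, and all 14 markers of these lists were counted in every library. The similar mesenchymal sums hid differences between markers. Of the 8, 6 had a negative log2 fold change (E14.5 over adult), and 4 were lower without overlap, with a list median of -0.57. Col1a1 (0.85) and Dcn (0.50) were the 2 positive ones. Pdgfra was lower by the edgeR test (log2 fold change -3.72, adjusted p = 0.0361). The 6 smooth muscle markers also differed, with 4 positive and 2 negative log2 fold changes and a median of 0.12. Acta2 was at 0.01, Des at 1.65 and Myocd at 2.42. Only Des was higher in E14.5 without overlap, against 12.1% of all genes. Des and Myocd were called higher by DESeq2 (adjusted p = 0.0115 and 0.00812), against 5.14% of its genes, but not by edgeR (0.177 and 0.172). Epithelial markers, most of it Krt20, summed to 61.8, 47.6 and 25.3 CPM in replicates 1, 2 and 3 of E14.5. In the adult replicates they summed to 14.3, 10.1 and 14.1 CPM, so the groups did not overlap. Of the 7 epithelial markers, 1 to 3 were at 0 in each library. Sums for other cell types differed between libraries. For the 9 leukocyte and macrophage markers they were 186, 373 and 2248 CPM in replicates 1, 2 and 3 of E14.5, against 18.1 to 175 CPM in the adult libraries. For the 8 endothelial markers, adult replicates 2 and 3 reached 1839 and 393 CPM and the other 4 libraries 17.1 to 36.2 CPM. The 6 mesothelial markers summed to 158, 765 and 148 CPM for embryonic replicates 1, 2 and 3. Their sums for adult replicates 1, 2 and 3 were 1423, 514 and 710 CPM. The 7 markers of neurons, glia and pacemaker cells spanned 14.7 to 60.5 CPM across embryonic libraries. Adult libraries lay above that range, at 77.4 to 159 CPM. In bulk RNA, more cells of a type and more RNA per cell cannot be told apart. A further fit left out adult replicate 2 and E14.5 replicate 3 together, where these endothelial and leukocyte sums peaked. Its values are given beside those of each of the 9 genes and of Slc6a17 and Rragd, which passed the test. That fit kept adult replicate 1 and E14.5 replicate 2, each with the highest mesothelial sum of its group. Adult replicate 3, with an endothelial sum of 393 CPM, also stayed in. So did E14.5 replicates 1 and 2, with leukocyte sums of 186 and 373 CPM. The fit therefore does not remove the mesothelial, endothelial or leukocyte differences.

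Slc38a1 encodes SNAT1, an importer of glutamine and other small neutral amino acids. It measured 230, 191 and 202 CPM in replicates 1, 2 and 3 of E14.5 and 80.6, 77.9 and 77.7 CPM in adult replicates 1, 2 and 3. All 3 embryonic cultures lay far above all 3 adult ones, and the adult cultures were close to each other, with a coefficient of variation of 2.07% against 9.62% in E14.5. Counting error was of that size in the adult libraries, where 1568 to 2210 counts give 2.13% to 2.53%. The log2 fold change, E14.5 over adult, was 1.40 (SE 0.11), a 2.64-fold difference. It lay between 1.31 and 1.46 under all 16 alternatives tried and was 1.40 in the fit without adult replicate 2 and E14.5 replicate 3. Pairing libraries by title prefix gave log2 differences of 1.51, 1.29 and 1.38. Its mm10 position is chromosome 15, 96571418 to 96642913, minus strand.

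Slc38a2 encodes SNAT2, the classical system A carrier, which cells raise when starved of amino acids. Its gene lies near Slc38a1, on the same strand from 96687392 to 96699730, with 44.5 kb and 1 other annotated gene between them. It measured 337.5, 115 and 191 CPM in replicates 1, 2 and 3 of E14.5 and 304, 304 and 229 CPM in the adult replicates. The groups overlapped: E14.5 replicate 1 was the highest of all 6 libraries and E14.5 replicate 2 the lowest. The coefficient of variation was 52.8% in E14.5 and 15.6% in adults, against counting errors of 0.963% to 1.64%. Its log2 fold change of -0.38 (SE 0.38, adjusted p = 0.696, edgeR) was within the spread between cultures. Leaving out E14.5 replicate 1 gave -0.88, and leaving out E14.5 replicate 2 gave -0.08. With both adult replicate 2 and E14.5 replicate 3 dropped, the value was -0.24.

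The balance between Slc38a1 and Slc38a2 set every culture of the embryo apart from every culture of the adult. For levels between genes, CPM was divided by the length of the longest annotated transcript linked to RefSeq, 7266 bases for Slc38a1 and 4660 bases for Slc38a2. Slc38a1 then made up 30.4%, 51.7% and 40.4% of the sum of both genes in E14.5 replicates 1, 2 and 3 and 14.5%, 14.1% and 17.9% in the adult replicates. The sum itself overlapped between groups, at 104, 50.9 and 68.8 CPM per kb in E14.5 and 76.3, 75.9 and 59.7 CPM per kb in adults. E14.5 replicate 2, with the lowest sum and the lowest Slc38a2, had the highest share of Slc38a1. The level of the share depends on the length used, since Slc38a1 also has a transcript of 3183 bases. With the shortest transcripts the mean share was 60.5% in E14.5 and 29.5% in adults, and with the union of all exons 35.7% and 12.8%, in alternatives added after the data were seen. A change of length multiplies the ratio of the genes by the same factor in every library, so it cannot change their order. Since Slc38a1 was chosen for its difference, the share is a description and was not tested.

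**Figure D1:**
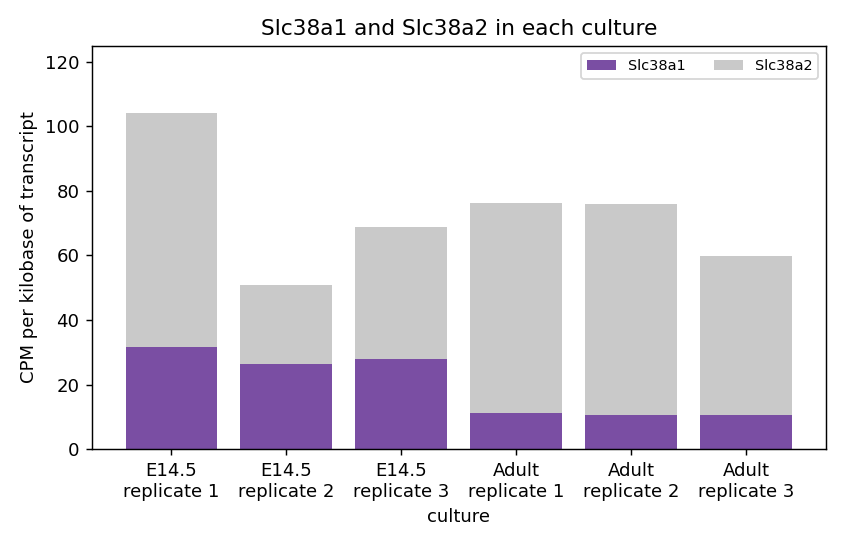
Stacked bars give the level of Slc38a1 (purple) and Slc38a2 (grey) in each of the 6 cultures, in CPM per kilobase of transcript. The purple part is 26.3 to 31.6 in E14.5 and 10.7 to 11.1 in adult cultures, while the whole bars, at 50.9 to 104 and 59.7 to 76.3, overlap.

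Slc1a5 encodes ASCT2, a sodium-dependent exchanger of glutamine, alanine, serine and cysteine that is abundant in many proliferating cells. It had the lowest ratio of E14.5 to adult among the 9 genes. It measured 7.01, 7.97 and 10.4 CPM in replicates 1, 2 and 3 of E14.5 and 33.4, 14.9 and 36.1 CPM in the adult replicates. All embryonic libraries lay below all adult ones, with adult replicate 2 the lowest of its group. The log2 fold change was -1.74 (SE 0.36, unadjusted p = 0.00269, adjusted p = 0.0959, edgeR), a 3.34-fold lower mean, which did not pass the threshold of 0.05. Without adult replicate 2 it was -2.04 and adjusted p was 0.0472 (edgeR), and in the fit without adult replicate 2 and E14.5 replicate 3 it was -2.22 with adjusted p = 0.0495. DESeq2 gave adjusted p = 2.6e-04. Over all alternatives adjusted p ranged from 2.6e-04 to 0.335, and the direction held in all 16. Adult replicate 2 was also the library with the endothelial marker sum of 1839 CPM, and the part of endothelial RNA in its Slc1a5 value was not tested. On mm10 it occupies chromosome 7 from 16781340 to 16798274 (plus strand).

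Slc1a4 encodes ASCT1, the close relative of ASCT2 that exchanges serine, alanine, cysteine and threonine. It measured 62.5, 44.2 and 55.6 CPM in replicates 1, 2 and 3 of E14.5 and 51.9, 56.0 and 41.1 CPM in the adult replicates, so the groups overlapped, with a log2 fold change of 0.12 (SE 0.18, adjusted p = 0.798, edgeR), or 0.19 when adult replicate 2 and E14.5 replicate 3 were both left out. Per kilobase, Slc1a4 stood 6.29, 3.90 and 3.78 times as high as Slc1a5 in the E14.5 libraries and 1.09, 2.64 and 0.801 times as high in the adult libraries. The ratio was above that of all adult cultures in all 3 embryonic cultures, and Slc1a4 was the more abundant of the pair in every library except adult replicate 3. The sum of the pair was 14.1 to 18.5 CPM per kb in E14.5 and 19.7 to 25.3 CPM per kb in adults, without overlap. With 3 cultures against 3, an exact two-sided permutation test cannot go below p = 0.10, and none was run on these ratios. On mm10 it occupies chromosome 11 from 20302180 to 20332713 (minus strand).

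**Figure D2:**
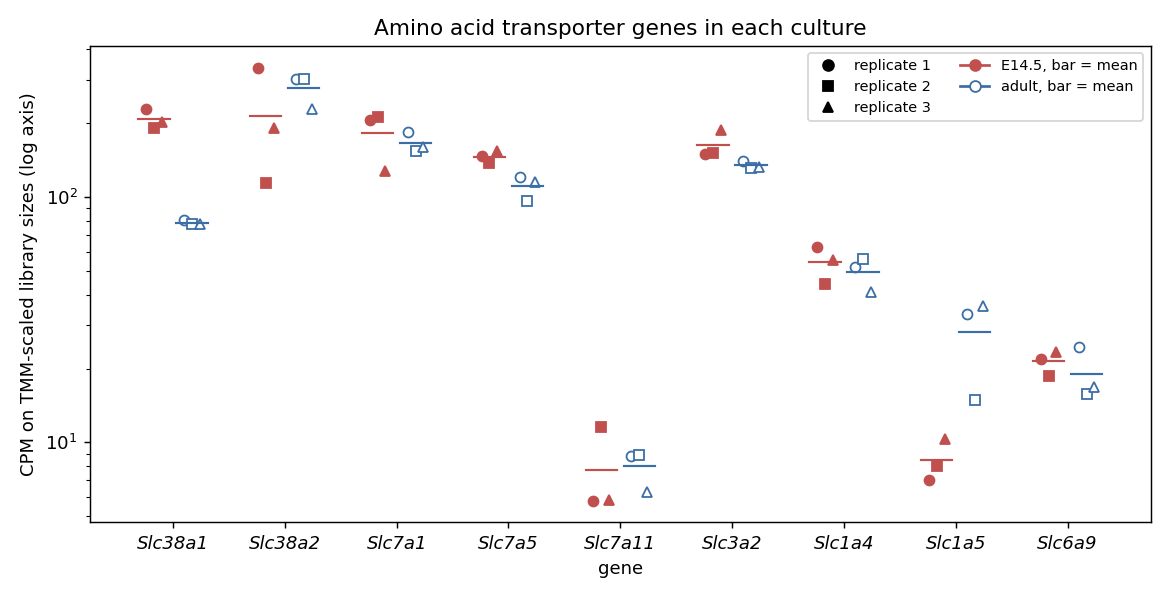
Each point is the CPM of a gene in 1 culture on a log axis, filled for E14.5 and open for adult, with the marker shape giving the replicate and the horizontal bar the mean of 3. Slc38a1, Slc7a5 and Slc3a2 have all E14.5 points above all adult points, Slc1a5 has all of them below, and the other 5 genes overlap.

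Slc7a5 encodes LAT1, the exchanger that brings in leucine and other large neutral amino acids against glutamine. It measured 147, 137 and 154 CPM in replicates 1, 2 and 3 of E14.5 and 120, 96.8 and 116 CPM in the adult replicates. The embryonic libraries all lay above the adult ones, by a smaller step than for Slc38a1. The log2 fold change was 0.40 (SE 0.12, unadjusted p = 0.0161, adjusted p = 0.166, edgeR), a 1.32-fold difference that did not pass the test, with 0.26 when adult replicate 2 and E14.5 replicate 3 were both left out. DESeq2 gave adjusted p = 0.0489, and the other alternatives gave values from 0.121 to 0.427. Its position is chromosome 8, 121881150 to 121907694, minus strand.

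Slc3a2 encodes CD98 heavy chain (4F2hc), the glycoprotein that carries LAT1, xCT and related light chains to the membrane. It measured 149, 151 and 188 CPM in replicates 1, 2 and 3 of E14.5 and 140, 131 and 133 CPM in the adult replicates. Again the groups did not overlap, but E14.5 replicates 1 and 2 lay close to adult replicate 1. EdgeR put the log2 fold change at 0.27 (SE 0.13, adjusted p = 0.333), short of the threshold, with 0.13 when adult replicate 2 and E14.5 replicate 3 were both left out. E14.5 replicate 3, the highest library, also held the leukocyte marker sum of 2248 CPM and the highest sum of 10 proliferation genes, 423 CPM, and the part of either in its Slc3a2 value was not tested. The ratio of Slc7a5 to its heavy chain per kilobase was 0.790, 0.728 and 0.656 in E14.5 and 0.687, 0.592 and 0.696 in adults. Light and heavy chain transcripts thus stood in overlapping proportion in both groups. Slc3a2 is annotated on chromosome 19 from 8706882 to 8723369, minus strand.

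Slc7a11 encodes xCT, the light chain that exchanges intracellular glutamate for cystine and feeds glutathione synthesis. It was the least abundant of the 9 genes per kilobase. It measured 5.79, 11.6 and 5.84 CPM in replicates 1, 2 and 3 of E14.5 and 8.82, 8.89 and 6.26 CPM in the adult replicates. E14.5 replicate 2 was the highest of all 6 libraries, and the other E14.5 libraries were the lowest. At 178 to 373 counts per library, counting error alone was 5.18% to 7.50%. EdgeR put the log2 fold change at -0.05 (SE 0.35, adjusted p = 0.964), and its sign turned in 5 of 16 alternatives, with 0.20 when adult replicate 2 and E14.5 replicate 3 were both left out. The medium of every culture held β-mercaptoethanol, a reducing agent known to let cells take up cystine by another route. Slc7a11 is annotated on chromosome 3 from 49892526 to 50443614, minus strand.

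ATF4 binds with C/EBP partners to the amino acid response element, of which TGATGNAA is the core searched here on both strands (TTNCATCA on the other). RefSeq promoter windows (GRCm38.p6, 250 bases before to 50 after a start site) were matched for 6 of the 9 genes, in 9 windows. Slc38a1, Slc7a5 and Slc1a5 had no window in the table. The core was present in 2 of the 9 windows, those of Slc7a11 and Slc1a4, and in 3.97% of all 32851 windows. Sequence outside the windows, such as introns farther from the start site, was not searched. A window without a match therefore does not show that a gene lacks the element. In the amino acid response list described below, 9 of 28 genes with a window held it, among them Asns, Chac1, Trib3 and Atf3. The windows with a match are shown because an element of this kind is how ATF4 is known to act on Slc7a11, with the match in capitals. A match is a description of letters and not of binding. The Slc7a11 window is chr3:50443564-50443863 and the Slc1a4 window chr11:20332664-20332963, both on the minus strand and written 5′ to 3′ along the gene.
Slc7a11: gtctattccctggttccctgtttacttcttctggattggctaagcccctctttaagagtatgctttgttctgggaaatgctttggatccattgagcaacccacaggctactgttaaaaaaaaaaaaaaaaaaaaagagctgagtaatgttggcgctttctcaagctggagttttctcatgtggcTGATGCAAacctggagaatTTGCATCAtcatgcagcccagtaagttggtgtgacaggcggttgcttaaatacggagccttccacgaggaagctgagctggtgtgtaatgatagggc
Slc1a4: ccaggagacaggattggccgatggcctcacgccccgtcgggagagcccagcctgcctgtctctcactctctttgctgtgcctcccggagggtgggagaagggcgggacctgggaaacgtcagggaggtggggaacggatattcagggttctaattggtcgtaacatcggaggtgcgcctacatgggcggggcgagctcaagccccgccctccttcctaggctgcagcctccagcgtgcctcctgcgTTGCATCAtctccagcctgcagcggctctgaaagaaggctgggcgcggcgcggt
The Slc7a11 window holds 2 cores facing opposite ways, with 11 bases between them, starting 66 and 47 bases before the start site. At least 2 matches were found in 23 of the 32851 windows. The Slc1a4 window holds 1 core on the other strand, starting 4 bases before the start site. Both genes overlapped between the groups, as the values above show.

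Slc7a1 encodes CAT1, the main carrier of arginine and lysine in most cells. It measured 206, 213 and 127 CPM in replicates 1, 2 and 3 of E14.5 and 184, 155 and 159 CPM in the adult replicates. The embryonic libraries spanned the adult range on both sides, with E14.5 replicate 3 the lowest of all 6. EdgeR gave a log2 fold change of 0.13 (SE 0.21, adjusted p = 0.822), which ran from 0.0066 without E14.5 replicate 2 to 0.34 without E14.5 replicate 3 when 1 library was left out. The joint omission of adult replicate 2 and E14.5 replicate 3 gave 0.28. Slc7a1 is annotated on chromosome 5 from 148327410 to 148399904, minus strand.

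Slc6a9 encodes GLYT1, a sodium- and chloride-dependent importer of glycine. It measured 21.9, 18.7 and 23.5 CPM in replicates 1, 2 and 3 of E14.5 and 24.4, 15.7 and 16.9 CPM in the adult replicates, and the groups overlapped. EdgeR put the log2 fold change at 0.17 (SE 0.21, adjusted p = 0.751), with -0.03 when adult replicate 2 and E14.5 replicate 3 were both left out. Exons of Slc6a9 overlap those of Ccdc24 and B4galt2 on the opposite strand, and its strand-specific count was 3 to 27 counts above its unstranded count in every library. Its position is chromosome 4, 117834506 to 117875198, plus strand.

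Across the list, 0 of the 8 genes other than Slc38a1 passed the edgeR test over all genes, against 1.08% of the 13478 genes tested. At an unadjusted p under 0.05 there were 2, Slc1a5 and Slc7a5, against 17.9% of all genes. DESeq2 called the same 2, Slc7a5 higher and Slc1a5 lower, against 10.6% of its genes in either direction, 5.14% higher and 5.47% lower. The groups did not overlap for 3 of the 8, with Slc7a5 and Slc3a2 higher and Slc1a5 lower in E14.5, against 24.1% of all genes, 12.1% higher and 12% lower. For the 8 the log2 fold changes had a median of 0.13, and for all tested genes 0.01. The sum of all 9 genes was 253, 194 and 223 CPM per kb in E14.5 replicates 1, 2 and 3 and 219, 197 and 191 CPM per kb in the adult replicates, so the groups overlapped in the sum.

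**Figure D3:**
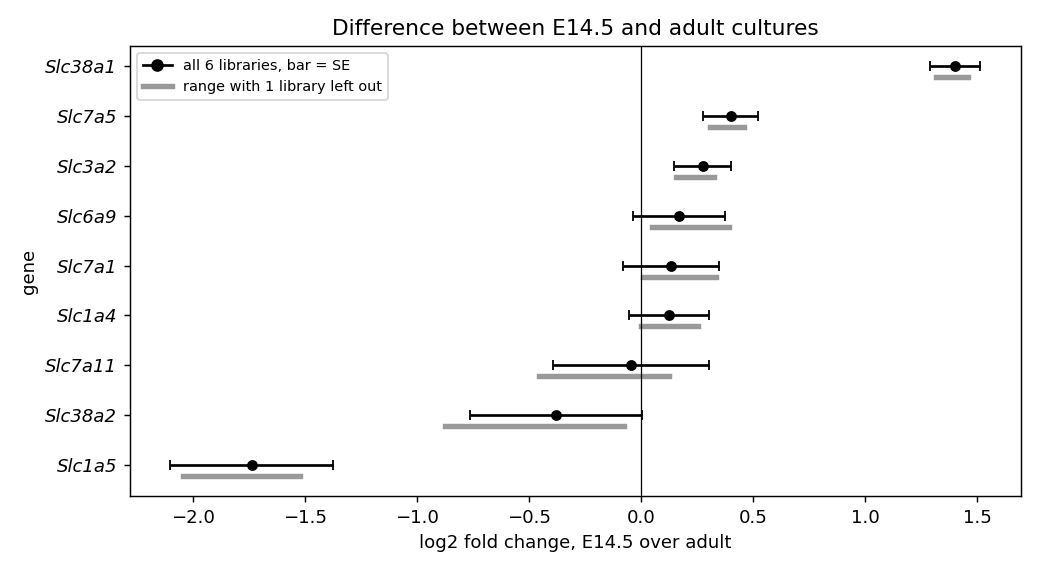
Points give the log2 fold change, E14.5 over adult, of each gene with its SE, and grey lines the range of that value over the 6 fits that each leave out 1 library. Slc38a1 at 1.40 and Slc1a5 at -1.74 lie farthest from 0, and the grey line crosses 0 for Slc7a11.

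Per kilobase of transcript, the order of mean levels in E14.5 cultures was Slc3a2 (57.9 CPM per kb), Slc38a2 (46.0), Slc7a5 (41.6), Slc38a1 (28.6), Slc7a1 (25.3), Slc1a4 (13.8), Slc6a9 (6.14), Slc1a5 (3.05) and Slc7a11 (0.838). Neighbours whose libraries overlapped were Slc3a2 with Slc38a2, Slc38a2 with Slc7a5, and Slc38a1 with Slc7a1. In adult cultures the order was Slc38a2 (59.8 CPM per kb), Slc3a2 (47.9), Slc7a5 (31.6), Slc7a1 (23.1), Slc1a4 (12.6), Slc38a1 (10.8), Slc1a5 (10.2), Slc6a9 (5.46) and Slc7a11 (0.866). There the libraries overlapped between Slc38a2 and Slc3a2, and between each pair of neighbours from Slc1a4 to Slc6a9. Slc38a1 thus had rank 4 of 9 in E14.5 and rank 6 of 9 in adults. Lengths are those of the longest RefSeq-linked transcript, and the places of Slc38a1 and Slc3a2, which also have shorter ones, depend on that choice.

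By the root mean square difference of mean-centred log2 CPM over the 6 libraries, the gene most like Slc38a1 among 8881 genes of at least 10 CPM was Slc24a3, with 0.107. Slc24a3, a potassium-dependent sodium-calcium exchanger gene, measured 221, 149 and 168 CPM in the embryonic and 76.2, 68.0 and 64.1 CPM in the adult libraries. Next came Ifi30 (0.218), Fuca2 (0.219), Grb10 (0.231) and Gng2 (0.241). Of these, Ifi30 encodes a lysosomal thiol reductase, Fuca2 a fucosidase, Grb10 an adaptor of growth factor receptors and Gng2 a G protein subunit. Among the other transporters described above except Slc7a11, which was below that level, the difference was 0.508 for Slc7a5, the nearest, and 1.59 for Slc1a5, the farthest.

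Other amino acid transporters were read from a list of 43 genes, of which 23 passed the filter. Of these 23, 0 were higher and 1, Slc6a17, was lower in E14.5 by edgeR, against 0.245% and 0.838% of all genes. DESeq2 called 5 of them higher and 4 lower, against 5.14% and 5.47% of its genes. In edgeR, 9 had an unadjusted p under 0.05, against 17.9% of all genes. The groups did not overlap for 9 of them, 4 higher and 5 lower, against 12.1% and 12% of all genes. Their median log2 fold change was 0.00. Slc6a17, a vesicular carrier of neutral amino acids known from neurons, measured 2.94, 2.85 and 2.47 CPM in replicates 1, 2 and 3 of E14.5 and 19.9, 14.4 and 20.6 CPM in the adult replicates. With a log2 fold change of -2.73 and an SE of 0.22, it passed the test (adjusted p = 0.0169, edgeR). Leaving out E14.5 replicate 1 raised adjusted p to 0.0737 and leaving out adult replicate 3 to 0.132, and it was 0.0938 with the title prefix as a block and 0.0451 in the fit that drops adult replicate 2 with E14.5 replicate 3. The direction held in all 16 alternatives.

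Slc38a4, the third carrier of the Slc38 cluster on chromosome 15 and an imprinted gene, measured 440, 44.9 and 175 CPM in replicates 1, 2 and 3 of E14.5 and 0.303, 8.34 and 4.43 CPM in the adult replicates. The groups were far apart, but the spread between embryonic libraries was wide, and the log2 fold change of 5.67 (SE 1.33) had adjusted p = 0.111 in edgeR and 3.9e-04 in DESeq2. The most abundant of the list, Slc6a6, the taurine carrier, spanned 319 to 406 CPM in embryonic and 544 to 582 CPM in adult libraries, with a log2 fold change of -0.58 (adjusted p = 0.109 in edgeR and 0.0012 in DESeq2). Slc1a6, a glutamate carrier, measured 56.7, 19.9 and 40.9 CPM in the embryonic and 112, 105 and 91.2 CPM in the adult libraries (adjusted p = 0.132 in edgeR and 0.00454 in DESeq2). Slc38a10 (log2 fold change -0.32) did not overlap between the groups and had adjusted p = 0.184 in edgeR and 0.0442 in DESeq2, and Slc7a6 (-0.12) and Slc38a7 (0.13) overlapped. Slc38a3 and Slc38a5, the system N carriers of glutamine, had too few counts to pass the filter.

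Genes of the amino acid response were listed because several transporters are ATF4 targets. Of 29 tested, 0 passed the edgeR test, against 1.08% of all genes, and 9 had an unadjusted p under 0.05, against 17.9%. DESeq2 called 4 higher and 1 lower, against 5.14% and 5.47% of its genes. A positive log2 fold change was found for 23, against 6937 of all 13478 genes, and the median was 0.22. In CPM, 8 were higher and 1 lower in E14.5 without overlap, against 12.1% and 12% of all genes. Atf4 itself measured 305, 210 and 252 CPM in the embryonic and 261, 247 and 199 CPM in the adult libraries (adjusted p = 0.810, edgeR). Asns, the asparagine synthetase gene, measured 217 to 243 CPM in embryonic and 160 to 202 CPM in adult libraries, without overlap (log2 fold change 0.34, adjusted p = 0.238, edgeR). Atf5 measured 253 to 325 CPM in the embryonic libraries, within reach of the 265 to 419 CPM in adults. Psat1, an enzyme of serine synthesis named after its values were seen, had means of 182 CPM in embryonic and 109 CPM in adult cultures, a log2 fold change of 0.74 (adjusted p = 0.0509 in edgeR and 2.1e-06 in DESeq2).

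Aminoacyl-tRNA synthetases join amino acids to their tRNAs. Of 20 tested, 0 passed the edgeR test, 7 had an unadjusted p under 0.05 in edgeR and DESeq2 called 2 higher. Over all genes these shares were 1.08%, 17.9% and 5.14%. All 20 had a positive log2 fold change, against 6937 of all 13478 genes. Their values ran from 0.06 to 0.62 with a median of 0.28. Of the 20, 10 did not overlap between groups, against 12.1% of all genes that were higher without overlap. The list summed to 3753, 4277 and 3534 CPM in the embryonic libraries and 3472, 3173 and 2962 CPM in the adult ones. Nars, Gars and Eprs, the most abundant, had values of 0.14, 0.30 and 0.24 (adjusted p = 0.731, 0.424 and 0.482, edgeR). Scaling by library size alone gave a median of 0.32, and leaving out 1 library gave 0.21 to 0.33.

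Enzymes that use glutamine, glycine and glutathione had 0 of 18 tested genes past the edgeR test (DESeq2 also 0, and 1 had an unadjusted p under 0.05), with a median of -0.05. Over all genes these shares were 1.08%, 10.6% and 17.9%. Glud1, the glutamate dehydrogenase gene, had a log2 fold change of -0.03, and Oat, the ornithine aminotransferase gene, of -0.14. Among 23 tested genes of amino acid sensing by mTORC1, 1 rose and 0 fell by edgeR, against 0.245% and 0.838% of all genes, with a median of 0.05. Rragd, a Rag GTPase that brings mTORC1 to the lysosome, measured 17.4, 19.8 and 24.2 CPM in the embryonic libraries against 6.51, 9.19 and 7.03 CPM in the adult ones. Its increase, a log2 fold change of 1.43 with an SE of 0.21, passed the test (adjusted p = 0.0418, edgeR), and adjusted p was above 0.05 in 10 of 16 alternatives, up to 0.226 without adult replicate 3. Dropping any library except E14.5 replicate 2 lost its call, with 0.0697 for adult replicate 2, 0.0787 for E14.5 replicate 3, 0.118 for E14.5 replicate 1 and 0.121 for adult replicate 1, and dropping adult replicate 2 and E14.5 replicate 3 together gave 0.0934. Its partner Rragc measured 172 to 199 CPM in embryonic and 151 to 172 CPM in adult libraries, and Rheb and Sec13 had log2 fold changes of -0.17 and 0.04. Proliferation genes had 0 of 10 past the edgeR test (DESeq2 also 0, and 0 had an unadjusted p under 0.05), and their sum was 101 to 423 CPM in embryonic and 135 to 371 CPM in adult libraries.

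**Figure D4:**
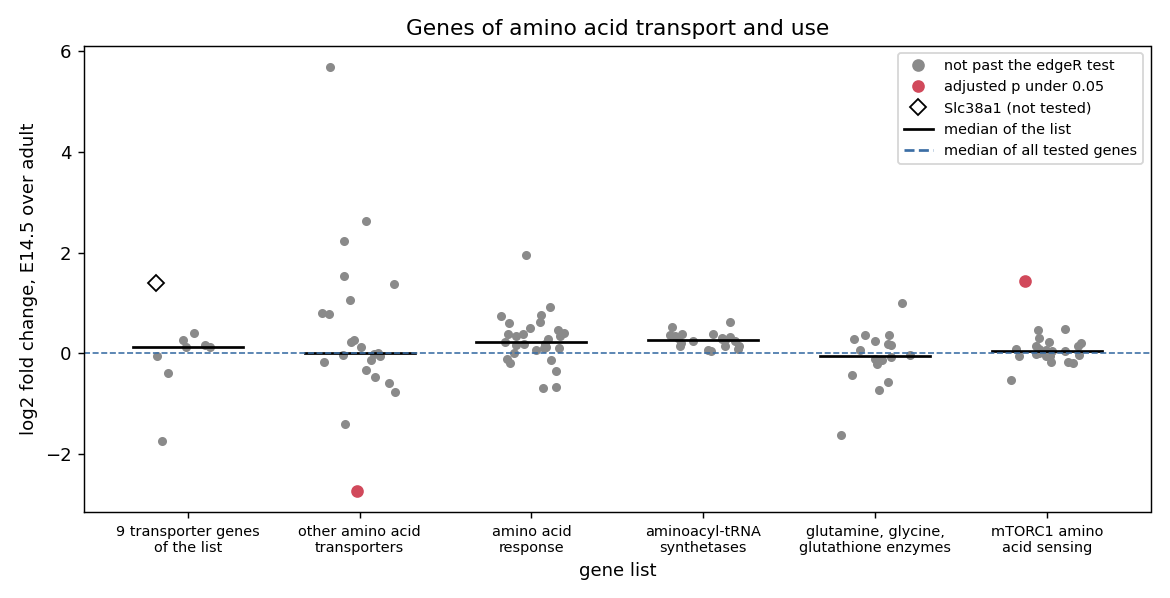
Each point is the log2 fold change, E14.5 over adult, of a tested gene of a list, with horizontal bars at the list medians and a dashed line at the median of all tested genes, 0.01. Red points passed the edgeR test (Slc6a17 at -2.73 and Rragd at 1.43), the open diamond is Slc38a1, and the points of the synthetase list all lie above 0.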

How the data were processed

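For each library the authors deposited a table of raw counts per gene. STAR and the build mm10 are named in the submitters' processing notes; neither annotation nor counting rule is stated in the sources used here. Per the labels' protocols, libraries were stranded, from poly(A) RNA, read over 75 bases from a single end. The reverse-strand column was used, as forward-strand counts were 1.33% to 1.69% of stranded gene counts. Rows of unmapped, multimapping and unassigned reads, 17.4% to 19.8% of counted reads, were left out.

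Genes passing filterByExpr were scaled by TMM and tested with edgeR 4.0.16 (quasi-likelihood, robust, two-sided, Benjamini-Hochberg over all 13478 genes, threshold 0.05) in R 4.3.3. The SE is the log2 fold change divided by the root of F. Levels are mean CPM, 3 libraries a group, replicates numbered in accession order. Alternatives used DESeq2 1.42.0, limma-voom (limma 3.58.1), other scalings and filters, the unstranded column, a title-prefix block and libraries left out. Gene coordinates and lengths are from GENCODE M21 (GRCm38). Steps were tested on simulated counts. The members, lists and alternatives were chosen with earlier results of these data known. Named genes were all members, up to 4 called genes per direction in each list, its 3 most abundant others (6 for transporters) and the 5 genes most like Slc38a1. A gene that this rule names is not reported here.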

Additional observations from a re-analysis of the deposited data

How the results depend on the processing

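Over 16 alternatives, all of the 9 transporter genes except Slc7a11 and Slc6a9 kept their direction. Slc7a11, at -0.05 with all libraries, ran from -0.46 to 0.12 with 1 library left out: it was positive when E14.5 replicate 1 (0.12) or 3 (0.12) or adult replicate 1 (0.03) or 2 (0.03) was dropped, and 0.20 when adult replicate 2 and E14.5 replicate 3 were dropped together. Slc6a9 was -0.026 in that last fit. Of the 8 genes tested, 0 were called with all libraries, 2 by DESeq2, 1 without adult replicate 2 and E14.5 replicate 3 together, and 0 to 1 with 1 library left out. The number of genes called over the whole table, 146, was 1427 in DESeq2 and 36 without adult replicate 2 and E14.5 replicate 3 together, and ran from 3 to 471 with 1 library left out. Of the genes of the 5 lists, 2 were called with all libraries, 17 by DESeq2, 1 with library size alone, 1 with limma-voom, 1 without adult replicate 2 and E14.5 replicate 3 together, and 0 to 4 with 1 library left out. Fits with fewer libraries have fewer degrees of freedom, and the cause of the other moves was not tested.

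With the title prefix as a replicate block, edgeR called 2 genes over the whole table, 0 of the 8 transporter genes and 0 of the lists. The labels do not explain the prefix, so it was not taken as a pairing. Deviations from the group mean correlated at -0.141, -0.229 and -0.088 across genes for libraries that share a prefix. With 3 libraries a group, the deviations within a group cancel out, so these values do not decide whether the prefix marks a pairing. Under the block, edgeR gave adjusted p = 0.186 for Slc1a5 and 0.279 for Slc7a5. Slc7a11 and Slc1a5 had the fewest counts of the 9 genes, 178 to 373 and 224 to 1027 per library, and intervals from counting cover counting error only.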
